A study of Mus musculus with 768 samples.

Results

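Granzymes, perforin and serglycin, the main content of the cytotoxic granule, were followed in single natural killer (NK) cells taken from mouse tumors. The 10 genes were listed by name and not by a cut on any measured value, though earlier results of these data were known. They are Gzma, Gzmb, Gzmc, Gzmd, Gzme, Gzmf, Gzmk, Gzmm, Prf1 and Srgn, out of 24490 gene entries. Each was found under its symbol as 1 row on both plates. The cells came from young adult male C57BL/6 mice, either wild-type (WT) or PD-1-/-, the latter with a germline deletion of part of Pdcd1 in every cell. Both kinds of mice carried MTAP1A tumors, a fibrosarcoma line without functional Tap1 and so with little surface MHC class I. Viable NK1.1+ cells without surface CD3 were sorted from tumors pooled over 3 mice per genotype, into 1 plate each, and sequenced by SMART-SEQ2, a full-length method without molecular identifiers.

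Wells with 1000 to 3500 genes above 0 were kept, 726 cells out of 768 wells, of which 360 were WT and the rest PD-1-/-, with a median of 2264.5 genes in WT and 2262.5 in PD-1-/-. The deposited RPKM values (reads normalised to gene length and to the mapped reads of the well) could be turned back into whole reads, which gave a median of 381406 reads per cell for WT (1618 to 593132) and 409415 for PD-1-/- (2043 to 689372) over the genes with a clear step. NK cell markers were present: Klrb1c, which encodes NK1.1, had a share of 96.1% in WT and 97% in PD-1-/-, and Ncr1, which encodes NKp46, one of 90.8% and 91.8%. At least 1 of Cd3d, Cd3e and Cd3g was read in 18.1% of the WT and 22.7% of the PD-1-/- cells in spite of the CD3- gate. Pdcd1 was read in 9 WT and 47 PD-1-/- cells; RPKM per gene cannot tell its deleted part from the part that is left, so the labels WT and PD-1-/- went unchecked and name the plates as submitted. Each genotype was 1 pool on 1 plate, so genotype and plate cannot be told apart, cells are not replicates, and no p-value is given. Intervals are exact 95% Clopper-Pearson intervals and cover counting error only; for a share of 0, the limit given is that of 3 counts over the number of cells.

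Granzymes are serine proteases that are stored in secretory granules and enter a target cell through pores of perforin, the product of Prf1. Serglycin, the product of Srgn, is the proteoglycan core on which granzymes and perforin are packed. Granzyme B cleaves after aspartate and starts apoptosis through caspases and Bid, whereas granzyme A and granzyme K are tryptases and granzyme M cleaves after methionine or leucine. Mouse NK cells are known for holding Gzmb and Prf1 transcripts at rest and for making protein from them after activation.

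On the GRCm38.p6 assembly, Gzmb (chr14:56258836-56262334), Gzmc (chr14:56231397-56241647), Gzmf (chr14:56205263-56211407), Gzmd (chr14:56129556-56132603) and Gzme (chr14:56117619-56120625) lie in 1 cluster on the minus strand, with Gzmg and Gzmn between Gzmf and Gzmd. Gzma (chr13:113093824-113100981) and Gzmk (chr13:113171630-113180965) are neighbours on another chromosome, and Gzmm (chr10:79689020-79695261), Prf1 (chr10:61297751-61304684) and Srgn (chr10:62493833-62527445) are on chromosome 10. The promoters of the chromosome 14 granzymes are shown because these genes range from nearly every cell to single cells while 4 of them share most of their upstream sequence. All 10 members had a RefSeq promoter in the table. Each stretch has 150 bases, from 160 to 11 bases before the start used in the table (for Gzmc and Gzmd a start inside the full span of the gene), read 5′ to 3′ on the gene's strand, and capitals mark the 8 bases nearest to the cAMP response element TGACGTCA where no more than 1 base differs.
Gzmb (chr14:56262345-56262494, minus): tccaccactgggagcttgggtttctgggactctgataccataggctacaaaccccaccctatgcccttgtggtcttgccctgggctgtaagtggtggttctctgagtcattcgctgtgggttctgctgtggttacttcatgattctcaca
Gzmc (chr14:56234668-56234817, minus): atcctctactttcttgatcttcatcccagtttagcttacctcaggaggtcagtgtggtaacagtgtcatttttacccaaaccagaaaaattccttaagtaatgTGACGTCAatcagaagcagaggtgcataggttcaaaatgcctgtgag
Gzmf (chr14:56211418-56211567, minus): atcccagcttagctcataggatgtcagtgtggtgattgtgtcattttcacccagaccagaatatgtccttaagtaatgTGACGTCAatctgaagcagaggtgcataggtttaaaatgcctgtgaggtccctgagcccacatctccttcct
Gzmd (chr14:56132604-56132753, minus): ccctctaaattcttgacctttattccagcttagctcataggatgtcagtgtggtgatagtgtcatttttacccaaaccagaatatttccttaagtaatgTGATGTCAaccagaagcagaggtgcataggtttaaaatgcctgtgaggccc
Gzme (chr14:56120636-56120785, minus): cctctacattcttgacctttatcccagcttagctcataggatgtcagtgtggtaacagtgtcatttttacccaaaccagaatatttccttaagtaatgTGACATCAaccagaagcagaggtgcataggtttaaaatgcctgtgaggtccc

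In the best local alignment, the Gzmd and Gzme stretches were identical at 95.3% of positions, and Gzmc was identical to Gzme at 89.9%. Gzmf matched Gzmd at 93% of positions. Gzmb stood apart, with an alignment of no more than 38 positions to any other. The complete element was present in Gzmc and Gzmf, and differed by C4T in Gzmd and by G5A in Gzme, counted from 1 at its 5′ end. Over the 250 bases before the start and on both strands, TGACGTCA was found in 1.546% of the 32851 promoters of the table, and in no other member. The RUNX core TGTGGT was found in 14.05% of all promoters and in 8 of the 10 members, at 2 places each in Gzmb, Gzmc, Gzmd, Gzme and Gzmf. The AP-1 letters TGANTCA, in 6.749% of all promoters, occurred in Gzmb alone among the members, and the T-box letters GGTGTG, in 16.28%, in Gzmk alone. The STAT letters TTCNNNGAA, in 7.02%, were found in Gzmm alone. A match is a description of these letters and says nothing of binding.

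Gzma was the most abundant granzyme. The share of cells with Gzma was 89.7% (86.1 to 92.7) on the WT plate and 89.3% (85.7 to 92.3) on the PD-1-/- plate. Its mean of 8657 RPKM ranked 5th of all genes in WT, and its mean of 10293 RPKM ranked first in PD-1-/-. Single WT cells ran from 0 through a median of 6248 to 55218 RPKM, and single PD-1-/- cells from 0 through 7570.2 to 69344 RPKM. Both plates thus held the same span, from cells with no read to cells in which Gzma alone gave 16393 reads (the highest in WT) or 18387 (the highest in PD-1-/-).

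Gzmb had a share of 81.9% (77.6 to 85.8) in WT and 86.6% (82.7 to 89.9) in PD-1-/-. Its level per WT cell had a median of 1187 RPKM and a maximum of 32522 RPKM. In PD-1-/- the median was 1864 RPKM and the maximum 40087 RPKM. Thin detections were more numerous in PD-1-/-, with 24 cells at a single Gzmb read against 12 in WT. With at least 10 reads required, the shares were 77.6% for PD-1-/- and 77.5% for WT.

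Gzmc, a granzyme that activated killer cells are known to make in addition to granzyme B, was found in a minority, with a share of 32.2% (27.4 to 37.3) in WT and 22.95% (18.7 to 27.6) in PD-1-/-. Most cells were at 0. The cells with Gzmc ran from 2.65 to 32194 RPKM in WT and from 2.03 to 21749 RPKM in PD-1-/-, a spread of 4 orders of magnitude. A single read stood behind 34 of the WT and 20 of the 84 PD-1-/- detections, 29.3% and 23.8%, where single reads made up 7.004% of all values above 0 over genes with a clear step. At least 10 reads were present in 79 WT cells, 21.9% (17.8 to 26.6), and 60 PD-1-/- cells, 16.4% (12.7 to 20.6).

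**Figure D1:**
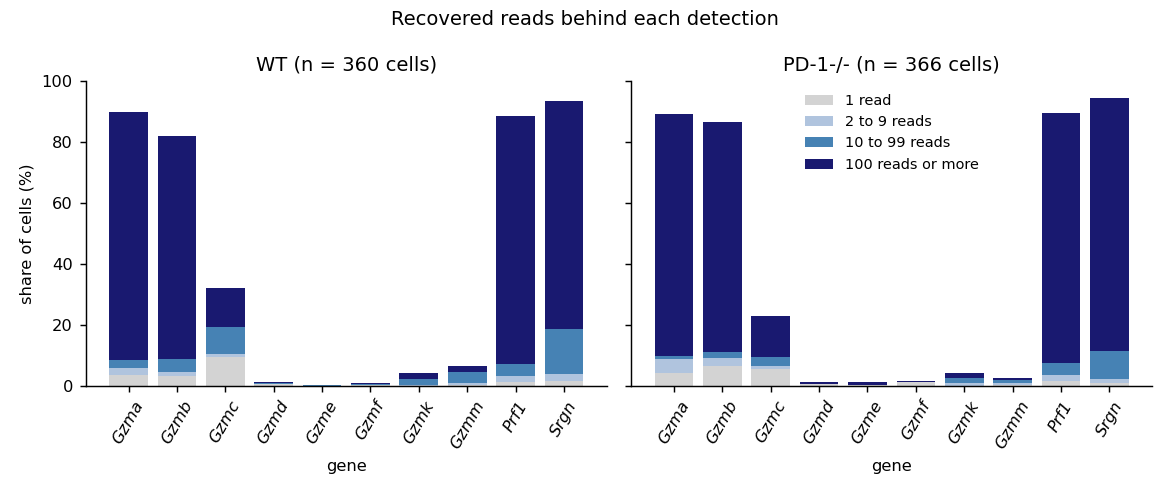
Share of kept cells (vertical axis, %) with each gene (horizontal axis), divided by the number of recovered reads, for WT (left) and PD-1-/- (right). Most of each Gzma, Gzmb, Prf1 and Srgn bar rests on 10 reads or more, whereas 29.3% of the WT and 23.8% of the PD-1-/- cells with Gzmc rest on 1 read.

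The other chromosome 14 granzymes were nearly absent. Gzmd was present in 4 WT cells, 1.11% (0.304 to 2.82), beside 5 PD-1-/- cells, 1.37% (0.445 to 3.16). For Gzme there was 1 WT cell, 0.278% (0.00703 to 1.54), beside 4 PD-1-/- cells, 1.09% (0.299 to 2.77). Gzmf occurred in 3 WT cells, 0.833% (0.172 to 2.42), beside 6 PD-1-/- cells, 1.64% (0.604 to 3.53). Their promoters share most bases with that of Gzmc, as shown above, but their shares were far below its own, and most of the Gzmf detections in PD-1-/-, 4 of 6, were single reads.

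Cells with Gzme mostly had Gzmd as well, and cells with either mostly had Gzmc. Of the 5 kept cells with Gzme, 4 also had Gzmd, 80% (28.4 to 99.5), against 5 of the 721 cells without Gzme, 0.693% (0.226 to 1.61). In turn, 4 of the 9 cells with Gzmd had Gzme. Of the 10 kept cells with Gzmd or Gzme, 8 had Gzmc, 80% (44.4 to 97.5), against 26.8% (23.6 to 30.2) of the 716 others. The PD-1-/- cell in well L3 had 21749 RPKM of Gzmc, 970.7 of Gzmd, 595.7 of Gzme and 11882 of Gzmf, but only 2.35 RPKM of Gzma, which was 1 read. The PD-1-/- cell in well G4 had 15858 RPKM of Gzmc, 2454 of Gzmd and 645.2 of Gzme with no read of Gzma. The one in D2 had 7361, 502.04 and 546.8 RPKM of these genes and 3 reads of Gzma. All 3 cells had Gzmb, at 1991 to 5930 RPKM. On the WT plate, the cell in L22 had 30058 RPKM of Gzmc, 124.6 of Gzmd and 123.7 of Gzme beside 13528 RPKM of Gzma, so the near absence of Gzma did not hold in all of them.

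Reads of these genes can be shared. The GENCODE vM21 transcripts of Gzmd and Gzme were identical at 90.04% of aligned positions, and 110 of the 915 windows of 50 bases in Gzmd, 12.02%, occurred unchanged in Gzme. For Gzmc, 32 of 845 such windows, 3.79%, occurred in Gzme, 3 in Gzmd and none in Gzmf. The Gzmd and Gzmf transcripts were identical at 83.13% of aligned positions, and 40 of the 915 Gzmd windows, 4.37%, occurred in Gzmf. No Gzme window occurred in Gzmf. None of the 1387 windows of Gzmb occurred in another of the 5 genes. How the counting treated shared reads was not given in the sources used here, and its part in the co-detection was not tested. Gzmd was seen without any read of Gzme at 824 RPKM in the WT cell of well C13, where Gzmc was at 3731 RPKM. Gzmf, which shared no window with Gzmc, stood without it in the WT cell of J13, at 477 RPKM, and in the PD-1-/- cell of O6, at 226.6 RPKM. These wells were picked singly and are no test of shared reads.

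Gzmk, a tryptase that is typical of memory T cells and of a less mature NK subset, was detected in 15 cells on each plate, a share of 4.17% (2.35 to 6.78) in WT and 4.10% (2.31 to 6.67) in PD-1-/-. Cells with Gzmk had a median of 447.9 RPKM in WT and 441.5 RPKM in PD-1-/-, and none rested on a single read. Gzmm was present in 23 WT cells, 6.39% (4.09 to 9.43), but 9 PD-1-/- cells, 2.46% (1.13 to 4.62). The cells with Gzmm had a median of 174.1 RPKM in WT and 187.1 RPKM in PD-1-/-. The Gzmm intervals overlap, and plate rows A to H held 9 WT and 2 PD-1-/- cells with Gzmm, while the lower rows held 14 and 7.

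Prf1 had a share of 88.6% (84.9 to 91.7) in WT and 89.6% (86.03 to 92.5) in PD-1-/-. Its median per cell was 887 RPKM in WT and 885 RPKM in PD-1-/-, and no cell passed 5987 or 6626 RPKM. Srgn was the most frequent member, at 93.6% (90.6 to 95.9) in WT and 94.5% (91.7 to 96.6) in PD-1-/-. Its median was 879 RPKM in WT and 1096 RPKM in PD-1-/-, and its maximum 4988 and 7863 RPKM. Prf1 and Srgn therefore had lower maxima than Gzma, Gzmb and Gzmc on both plates.

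**Figure D2:**
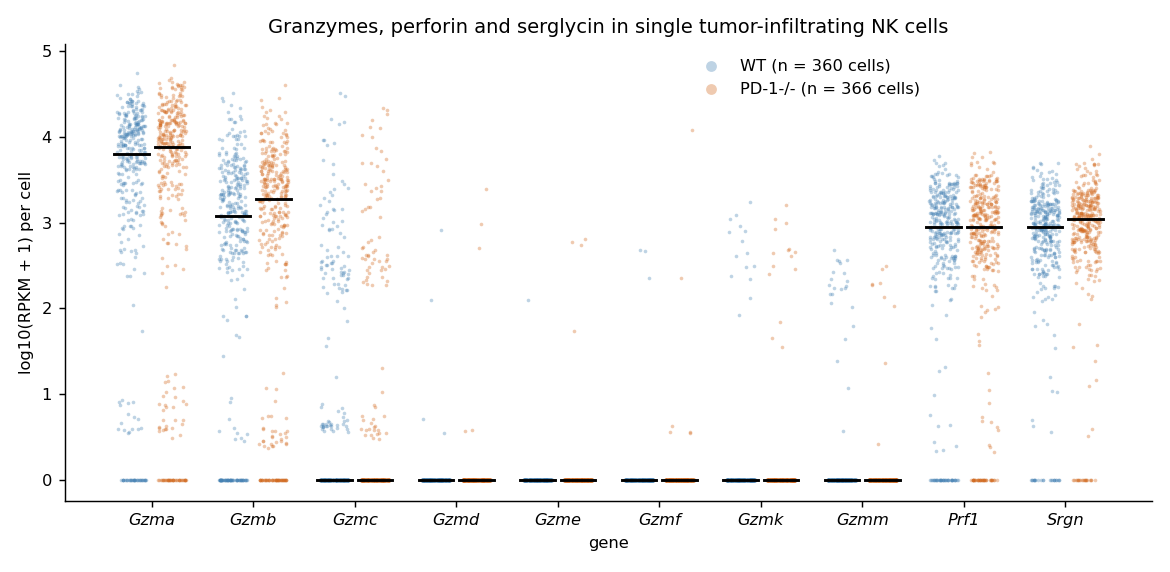
Level of each gene in every kept cell, as log10(RPKM + 1) on the vertical axis, for WT (blue) and PD-1-/- (orange); black bars are medians over all cells, zeros included. Gzma, Gzmb, Prf1 and Srgn have medians far above 0 on both plates, and the medians of the other 6 genes are 0.

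Within single cells the order by RPKM, a scale per length, was clearest for Gzma. It was above Gzmb in 74.4% (69.6 to 78.9) of the WT plate's cells and in 75.4% (70.7 to 79.7) of the other plate's. Gzmb exceeded Prf1 in a smaller majority, 57.8% (52.5 to 62.9) and 62.3% (57.1 to 67.3). Prf1 exceeded Srgn in 53.6% (48.3 to 58.9) of cells for WT but 45.6% (40.4 to 50.9) for PD-1-/-, intervals that overlap and include 50%, so neither was shown to be the higher. Among the 8 granzymes, Gzma was the highest in 73.9% (69.03 to 78.4) of cells for WT and 74.3% (69.5 to 78.7) for PD-1-/-. Gzmb led in 61 cells on each plate, 16.9% of WT and 16.7% of PD-1-/-. Gzmc led in 16 WT and 18 PD-1-/- cells, Gzmm in 2 and 1, and Gzmf in 1 PD-1-/- cell, while 15 WT and 13 PD-1-/- cells had no granzyme at all. The 10 members together made up a median of 2.03% of the RPKM sum of a WT cell and 2.42% of that of a PD-1-/- cell, and at most 12.02% and 15.3%.

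A cell had a median of 4 of the 10 members on both plates, and 48.9% of WT and 54.6% of PD-1-/- cells had exactly 4. No member at all was read in 2 cells on each plate, and the cell with the most was the PD-1-/- cell in L3, with 9. Gzma, Gzmb and Prf1 were all present in 71.9% (66.997 to 76.5) of cells for WT and 74.9% (70.1 to 79.2) for PD-1-/-. The commonest incomplete set was Gzma with Prf1 but no Gzmb, in 38 WT cells, 10.6% (7.58 to 14.2), and 28 PD-1-/- cells, 7.65% (5.14 to 10.9). None of these 3 genes was read in 10 WT and 7 PD-1-/- cells.

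Cells with 1 of Gzma, Gzmb and Prf1 more often had the others than cells without it. Gzmb was present in 85.8% of the WT cells with Gzma and in 18 of the 37 without it, 48.6%, a difference of 37.1 percentage points. On the PD-1-/- plate the same difference was 28.1 points, 89.6% against 61.5%. Gzma was present in 93.1% of WT cells with Prf1 against 63.4% of those without, and for PD-1-/- the shares were 92.1% against 65.8%. The intervals of the shares compared did not overlap for any of the 6 ordered pairs of these 3 genes on either plate, and the same held after thinning every cell to 100000 reads. Cells were divided by these 3 genes in the same way for every gene of sufficient level (the 3999 genes of the genotype comparison). Before thinning, 4.36% of the pairs stood apart on the WT plate and 2.07% on the other. For Srgn with Gzma, Gzmb or Prf1 the intervals overlapped on both plates.

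The share of Gzmc was larger in cells with Gzmb, and its intervals stood apart once read totals were made equal. It was 33.9% in WT cells with Gzmb and 24.6% in those without, and for PD-1-/- 24.3% and 14.3%, intervals that overlap. After thinning, the WT shares were 28% (22.8 to 33.7) against 7.69% (2.54 to 17.05) and the PD-1-/- shares 23.2% (18.4 to 28.5) against 6.25% (1.73 to 15.2), and these intervals do not overlap. The share of all genes that stand apart by Gzmb after thinning was not computed, so this separation has no background beside it. Against Gzma the difference was in the other direction, 31.3% with and 40.5% without in WT and 22.3% against 28.2% in PD-1-/-, within overlapping intervals. Cells with Gzmc also had more detected genes, a median of 2536 against 2188 in WT and 2498.5 against 2154 in PD-1-/-, a number that thinning to equal reads does not equalise, and the part of this in the pairing was not tested.

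**Figure D3:**
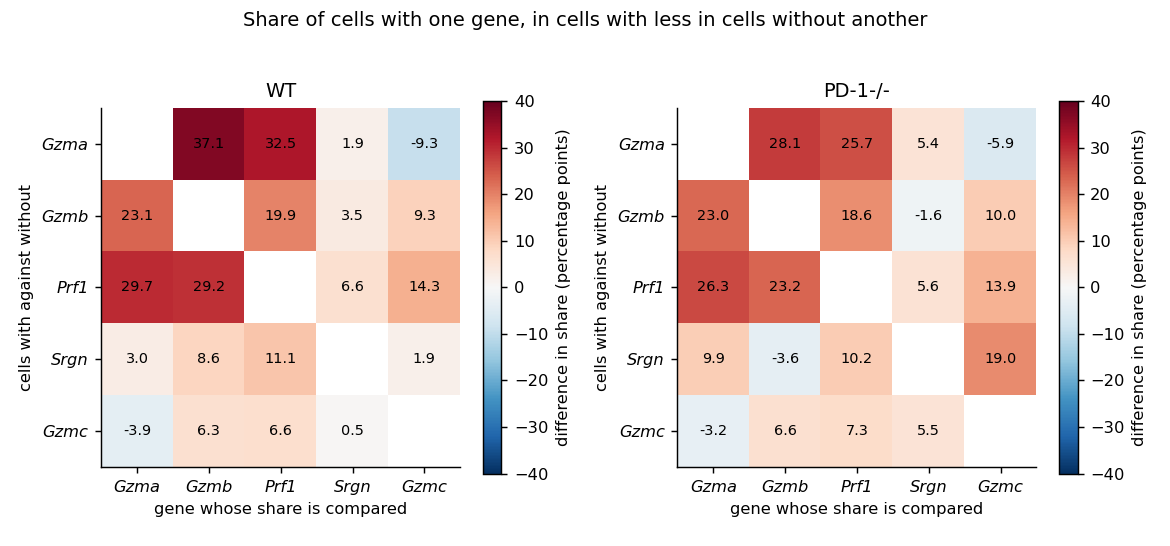
Difference in the share of cells with the gene named below (percentage points, color and number) between cells with and cells without the gene named at the left, for WT (left) and PD-1-/- (right). The block of Gzma, Gzmb and Prf1 runs from 18.6 to 37.1 points, and the entries for Gzmc against Gzma are below 0 on both plates.

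Spearman correlations across the cells of a plate gave the same picture, as a description over cells that share a plate and differ in depth. Gzmb and Prf1 had a rho of 0.45 in WT and 0.48 in PD-1-/-, Gzma and Prf1 0.39 and 0.47, and Gzma and Gzmb 0.39 and 0.45. Srgn was near 0 with Gzma (-0.04 and -0.01) and with Prf1 (0.03 and 0.04), and 0.02 and 0.13 with Gzmb. Gzmc was slightly negative with Gzma (-0.14 and -0.08). Ranked by the lower rho of the plates, the genes most like Gzma were Nkg7 (0.43 and 0.42), which encodes a granule membrane protein, Gzmb and Prf1. Those most like Gzmb were Prf1, Gzma and Irf8 (0.42 and 0.39), and those most like Prf1 were Gzmb, Irf8 (0.41 and 0.53) and Gzma. Irf8 encodes a transcription factor of myeloid and NK cells. No gene reached a rho of 0.3 on both plates with Gzmc or Srgn. The number of detected genes per cell was itself related to the members, with a rho of -0.24 and -0.26 for Gzma and of 0.37 and 0.28 for Gzmc.

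Members were then compared between cells with and without the transcript of a state gene, for 12 states and 10 members. The states, like the members, were chosen with earlier results of these data known. The intervals stood apart in 11 of these 120 pairs on the WT plate and 7 on the PD-1-/- plate, and in the same direction on both plates for 2 of them, Gzmc by Xcl1 and Prf1 by CD3 transcripts. Over all genes above 0 in at least 3 wells, 1.25% of such pairs stood apart on the WT plate, 1.15% on the PD-1-/- plate and 0.137% on both in 1 direction. For the 5 members of sufficient level the counts were 10 and 7 of 60 pairs, beside 2.09% and 2.34% of the pairs with any gene of that level. The count on both plates depended on depth and threshold. It was 8 pairs after thinning, beside 0.140% over the genes with a clear step. The shares of 0.137% and 0.140% were not limited to genes of sufficient level, for which no share on both plates was computed. The count was 7 at 10 reads or more and 1 of 110 without CD3 cells. For the last 2 settings no share over all genes was computed, so these counts cannot be set against a background. Those added by thinning were Gzma by Cxcr6, Eomes, Itga1 and CD3 transcripts, and Gzmc by Itga1 and S1pr5.

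Gzmc was higher in cells with Xcl1, which encodes a chemokine that draws cross-presenting dendritic cells. Its share was 37.8% in WT cells with Xcl1 against 13.4% without, and 28.5% against 10% in PD-1-/-. The difference of 24.4 points in WT and 18.5 points in PD-1-/- was 22.6 and 19.3 points after thinning, and 24.8 and 22.5 points without CD3 cells. The mean level of Gzmc was 715 RPKM with Xcl1 and 78.7 RPKM without it in WT, and 767 and 24.4 RPKM in PD-1-/-. Cells with Xcl1 also had more detected genes, a median of 2288.5 against 2155.5 in WT and 2369.5 against 1953 in PD-1-/-. Thinning does not equalise this number, to which Gzmc is itself related, and its part here was not tested.

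The same direction was seen with Cxcr6 and Itga1, which encode a chemokine receptor and the collagen receptor chain CD49a of tissue-resident cells. Mean Gzmc was 2396 RPKM in the 28 WT cells with Cxcr6 against 416 RPKM in the rest. The WT cell in L22 gave 44.8% of this sum, and without it the mean was 1371 RPKM. On the other plate it was 1472 RPKM in the 77 PD-1-/- cells with Cxcr6 against 296.8 RPKM. By Itga1, mean Gzmc was 2693 against 243.9 RPKM in WT and 1588 against 203.6 RPKM in PD-1-/-. The share of cells with Gzmc was higher by 22.6 points with Itga1 in PD-1-/- and by 10.9 points in WT, where the intervals overlap. Cells with Itga1 had more detected genes, a median of 2595.5 against 2244 in WT and 2404 against 2197 in PD-1-/-. The part of this number was not tested. Of the WT cells with Cxcr6, 64.3% had CD3 transcripts against 14.2% of those without, and in PD-1-/- 42.9% against 17.3%. Without CD3 cells, mean Gzmc was 4099.7 against 457.6 RPKM by Cxcr6 in WT, where 10 such cells were left, and 2112 against 330.2 RPKM in PD-1-/-. Of the WT sum, 73.3% came from the cell in L22, and the mean of the other 9 was 1215 RPKM.

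S1pr5, the receptor by which mature NK cells leave tissues for the blood, marked the opposite side. Gzmc was read in 14 of the 81 WT cells with S1pr5, 17.3%, against 36.6% of those without, and in 14 of 93 such PD-1-/- cells, 15.1%, against 25.6%. The intervals stood apart on the WT plate and, after thinning, on both (10.3% against 28.2% in WT, 8.79% against 24.05% in PD-1-/-). Cells with S1pr5 had fewer detected genes, a median of 2247 against 2278 in WT and 2074 against 2330 in PD-1-/-. The part of this number was not tested. Mean Gzma in PD-1-/- was 16987 RPKM with S1pr5 and 8013 RPKM without it, and in WT 9923 and 8290 RPKM. Mean Prf1 was 1446 against 1095 RPKM in WT and 1709 against 1082 RPKM in PD-1-/-.

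Gzma also moved with genes of NK cell maturity. Mean Gzma was 13028 RPKM in WT cells with Klrg1, an inhibitory receptor of mature NK cells, and 7852 RPKM in the rest, and 15198 against 8899 RPKM in PD-1-/-, where all 81 cells with Klrg1 had Gzma. With Itgam, which encodes CD11b, mean Gzma was 12124 against 7908 RPKM in WT and 17186 against 8487 RPKM in PD-1-/-. Tcf7, which encodes TCF-1 of less differentiated lymphocytes, went the other way, with 5751 against 12091 RPKM of Gzma in WT and 5464 against 13354 RPKM in PD-1-/-. Mean Gzmb was also lower with Tcf7, at 1582 against 3909 RPKM in WT and 1814 against 4244 RPKM in PD-1-/-. Detected genes per cell, to which Gzma is itself related, differed as well. With Itgam their median was 2224 against 2274.5 in WT and 2074.5 against 2301 in PD-1-/-. With Tcf7 it was 2285 against 2224 in WT and 2376.5 against 2163.5 in PD-1-/-. With Klrg1 it was higher in WT, 2421.5 against 2244, but lower in PD-1-/-, 2232 against 2269. The part of this number was not tested. Gzmk was present in 6 of 56 WT cells with Klrg1, 10.7% against 2.96% of the rest, and in 8 of 81 PD-1-/- cells, 9.88% against 2.46%, within overlapping intervals.

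Cells with a read of Cd3d, Cd3e or Cd3g less often had Prf1. Its share was 44 of 65 such WT cells, 67.7%, against 93.2% of the others, and 66 of 83 such PD-1-/- cells, 79.5%, against 92.6%. The difference was -25.5 points in WT and -13.1 points in PD-1-/-. Without plate rows A and B it was -17.6 and -12.6 points, and the intervals still stood apart on both plates. For Gzma the shares were 66.2% against 94.9% in WT and 84.3% against 90.8% in PD-1-/-. With at least 10 reads required, an alternative added after seeing the data, both plates stood apart for Gzma, at 50.8% against 91.2% and 66.3% against 84.8%. Any T cell marker of the list of 10 was read in 22.2% of the WT and 26.8% of the PD-1-/- cells, with a summed level of 0 to 5387 RPKM and 0 to 6140.4 RPKM. Beside the CD3 chains, the highest of them was Bcl11b, at 4.72% and 6.01%. Cd8a was at 1.94% and 1.91% and Cd4 at 0.833% and 1.09%. Themis was read in no WT cell, which allows a share of up to 0.833%, and in 0.273% of PD-1-/- cells. Apart from leaving them out, the part of these cells in the shares was not tested.

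Cells with Ifng, the main cytokine gene of NK cells, or with Cd27, a receptor of less mature NK cells, had intervals that overlapped those of the rest for the shares of Gzma, Gzmb, Gzmc, Prf1 or Srgn on either plate. Mean Gzmb was higher with Ifng, at 3480 against 2359 RPKM in WT and 3933 against 3016 RPKM in PD-1-/-. The direction of mean Gzma by Ifng differed between the plates. With Cd27, mean Gzma was lower, at 7948 against 10554 RPKM in WT and 9394 against 14233.5 RPKM in PD-1-/-. Cells with Cd27 had more detected genes, a median of 2276.5 against 2133 in WT and 2342.5 against 1960 in PD-1-/-. The part of this number was not tested. In cells with at least 2 of 5 cell cycle genes, 12 in WT and 22 in PD-1-/-, mean Gzmb was 389.7 against 2726 RPKM in WT and 1362 against 3425 RPKM in PD-1-/-. Prf1 was found in 6 of those 12 WT cells but in 20 of those 22 PD-1-/- cells. The 12 WT cells were shallow, with a median of 202234 reads against 382122 in the rest, and after thinning Prf1 was present in 5 of the 7 that were left and 19 of 20 in PD-1-/-, with intervals that overlap those of the rest on both plates.

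**Figure D4:**
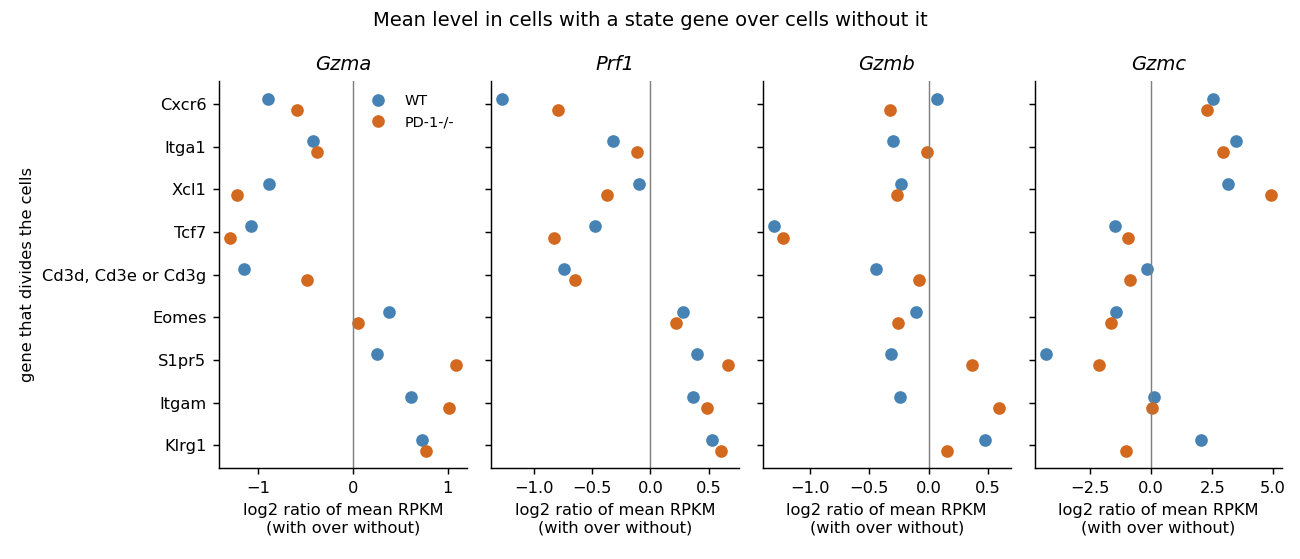
Log2 ratio of the mean RPKM + 1 of Gzma, Prf1, Gzmb and Gzmc (panels, horizontal axis, different scales) in cells with a state gene over cells without it (vertical axis), WT in blue and PD-1-/- in orange. Gzmc lies above 0 for Cxcr6, Itga1 and Xcl1 and below 0 for S1pr5 on both plates, whereas Gzma lies below 0 for the first 3 and above 0 for S1pr5.

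The genotype comparison asks how NK cells without PD-1, an inhibitory receptor, differ in the tumor. Gzma, Gzmb, Gzmc, Prf1 and Srgn differed by less than 1.5-fold in mean level, although Gzmc passed it in either direction with other wells kept (log2 ratio -0.81 with all wells and 0.76 in wells with 1500 to 3000 genes). The log2 ratio of mean RPKM, PD-1-/- over WT, was 0.25 for Gzma, 0.32 for Gzmb, 0.28 for Srgn, 0.08 for Prf1 and -0.07 for Gzmc. Of the 3999 genes of sufficient level, 1.78% were higher by 1.5-fold or more and 1.80% lower, and their median was -0.01. The ratio was above 0 for 4 of these 5 members, beside 1959 of the 3999. Within the plates, Gzma was at 0.24 in the upper rows (A to H) and 0.26 in the lower rows (I to P), and Srgn at 0.19 and 0.36. Gzmb was at 0.52 and 0.07, Prf1 at 0.35 and -0.18 and Gzmc at -0.50 and 0.24, so the direction of Prf1 and Gzmc differed between parts of the same plates.

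The other 5 members were below the level or share needed for that count. Gzmd, Gzme and Gzmf had log2 ratios of 1.68, 2.17 and 3.01, which rest on 1 to 6 cells per plate. That of Gzmf was -1.79 in the upper rows, which do not hold the PD-1-/- cell in L3. Gzmk was at -0.26 over all kept cells, -2.92 in the upper and 1.33 in the lower rows. Gzmm was at -1.42, with -2.01 and -1.04 in the upper and lower rows. Of all 10 members, 7 had the higher mean in PD-1-/-, a count that includes the rare Gzmd, Gzme and Gzmf. No share over all genes of any level was computed beside it.

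In shares, no member's intervals stood apart between the plates, and the nearest was Gzmc, with a lower bound of 27.4% in WT and an upper bound of 27.6% in PD-1-/-. Among all genes above 0 in at least 3 wells, 0.955% stood apart in this way, and 2.15% of those of sufficient level. A minority of cells, 32.5% (27.7 to 37.6) on the WT plate and 24.6% (20.3 to 29.3) on the other, had at least 1 of Gzmc, Gzmd, Gzme and Gzmf.

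**Figure D5:**
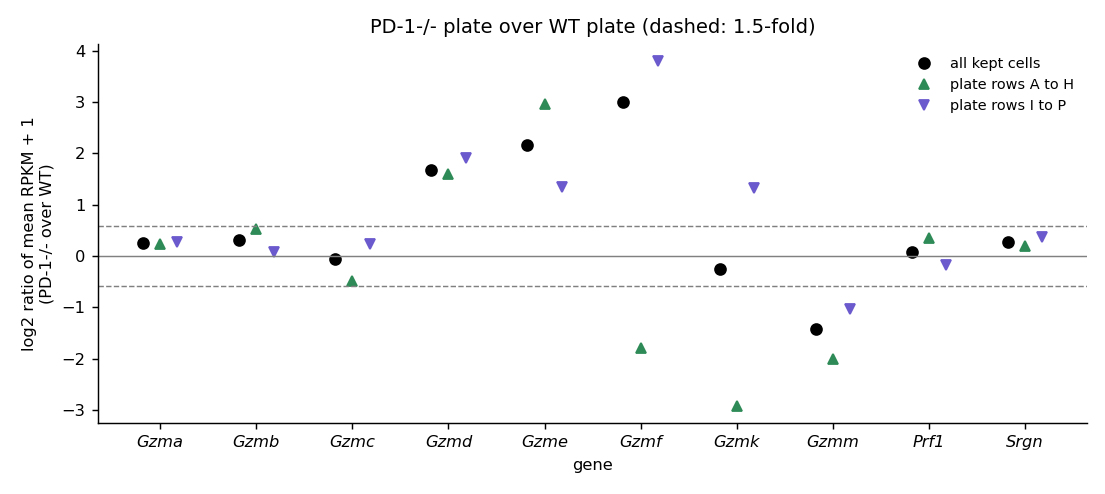
Log2 ratio of mean RPKM + 1, PD-1-/- over WT, for each gene, over all kept cells (circles) and within the upper (A to H) and lower (I to P) plate rows (triangles); dashed lines mark 1.5-fold. Gzma, Gzmb, Prf1, Srgn and Gzmc stay between the lines, and the 5 rare genes lie outside them in at least 1 of the row blocks.

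Of the 39 other genes of the granule pathway, 26 had sufficient level, and none of them passed 1.5-fold in either direction. Of all 3999 genes of that level, 1.78% were higher by 1.5-fold or more and 1.80% lower, so none of 26 is near that share. The median log2 ratio of the 26 was -0.05, and 10 of them were higher in PD-1-/-, beside 1959 of the 3999. For the proteases that activate progranzymes, Ctsc (cathepsin C) had a share of 41.4% in WT and 40.98% in PD-1-/-, with mean levels of 106.7 and 98.7 RPKM. Ctsw, a cathepsin of killer lymphocytes, was at 96.9% and 96.2%, and Cst7 (cystatin F), which inhibits cathepsins, at 75% and 71.04%. Of the serpins, Serpinb9, the inhibitor of granzyme B that protects the killer cell, was at 85.8% and 86.3%, and its rho with Prf1 was 0.43 and 0.37. The shares of Serpina3g, another serpin, stood apart, at 82.2% (77.9 to 86.03) in WT and 72.7% (67.8 to 77.2) in PD-1-/-, with a log2 ratio of mean RPKM of -0.41, and it was 1 of the 86 genes of sufficient level that did so.

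For granule release, Nkg7 was read in all but 1 cell of each plate. Stxbp2 had a share of 45.6% in WT and 46.7% in PD-1-/-, Unc13d of 43.3% and 38.3%, and Rab27a of 16.9% and 23.2%; each is needed for the docking or fusion of granules. Vamp7 is listed at 0 in every kept cell. Among the transcription factors, Id2 was at 97.2% and 97.5%, Tbx21 at 65.6% and 70.5%, Eomes at 61.9% and 55.2% and Prdm1 at 16.4% and 17.5%. The 2 remaining granzymes of the chromosome 14 cluster were all but absent: Gzmg was read in 1 PD-1-/- cell, the one in L3, and Gzmn in 1 cell of each plate. Of the mast cell and myeloid proteases at the same locus, Mcpt4 was read in no cell of either plate and Ctsg in 1 PD-1-/- cell. Cma1, a chymase gene, was read in 37 WT and 33 PD-1-/- cells, 10.3% (7.34 to 13.9) and 9.02% (6.29 to 12.4). Of the other mast cell markers, Kit, which some NK cells also express, was at 16.4% and 11.5%, Cpa3 at 2.5% and 1.37%, and Fcer1a at 0.278% in WT and in no PD-1-/- cell, which allows a share of up to 0.820%. Any of the 5 mast cell markers, Cma1 included, was read in 27.5% (WT) and 20.8% (PD-1-/-), at a summed level of 0 to 1918 and 0 to 1965 RPKM.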

How the data were processed

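The authors deposited RPKM values for 24490 gene entries in each well of both plates. The submitters' processing notes name TopHat, Cufflinks and the builds mm9 and mm10; versions and the handling of shared reads were not given in the sources used here. The 10 members and the other lists were chosen with earlier results of these data known. Genes above 0 in at least 3 wells were counted, and wells with 1000 to 3500 of them kept. Low values are whole multiples of 1 read, and 92.0% of 764014 values below 60 reads came out whole within 3e-04 of their size (100% for the members). Only genes with at least 90% whole low values were used for depth. Thinning to 100000 reads left out 20 WT and 13 PD-1-/- cells that were shallower. No count test was run, since each genotype was 1 pool on 1 plate. Log2 ratios used mean RPKM with a pseudocount of 1, which understates changes of low genes. The background was formed by genes with 10 RPKM or more on average and a share of 20% or more, in WT or PD-1-/-. Genes most like a member were the 3 with the highest lower Spearman rho over both plates among genes in at least 10% of cells, named from 0.3 upward. Wells named singly, and Serpina3g, were picked after their values were seen. Promoters came from RefSeq on GRCm38.p6. Scripts used Python 3, numpy, scipy and Biopython and were tested on simulated data. Every column of per-well values mapped to a labelled well.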

Additional observations from a re-analysis of the deposited data

Results flagged for a closer look

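The comparisons left out 12 wells with fewer than 1000 genes and 30 wells with more than 3500, and members were read in both kinds. Gzma was read in 6 of the 12 wells with few genes, 50% (21.1 to 78.9), with at most 17 reads. In the 30 wells with many genes, Prf1 and Srgn were read in every well, 100% (88.4 to 100), and Gzmb in 29, 96.7% (82.8 to 99.9). Gzma was read in 21 of them, 70% (50.6 to 85.3), below its share in kept cells, while Gzmc was read in 23, 76.7% (57.7 to 90.1), above its share in kept cells, and reached 64368 RPKM from 22819 reads in one well.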

How the results depend on the processing

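No paired analysis was possible because each genotype was 1 pool on 1 plate, so that the replicate numbers only name wells. Over 79 results and 14 other settings, with 1 more added after seeing the data (at least 10 reads), 722 of 792 values stayed within the interval of the reported value, or within 1.5-fold for ratios and counts. The median of 4 members per cell held under all of them that bear on it. At 10 RPKM, the share with Gzma, Gzmb and Prf1 together was 65.6% in PD-1-/-, and that with Gzmc, Gzmd, Gzme or Gzmf 23.6% in WT and 17.5% in PD-1-/-. At 10 reads the first share was 66.7% in WT and 63.7% in PD-1-/-, and the second 22.2% and 16.7%. Thinned to 100000 reads, the second share was 24.4% in WT and the first 67.4% in PD-1-/-. The second share in WT was 25.8% in the upper plate rows (A to H) and 39.01% in the lower rows (I to P). Without CD3 cells, the first share was 78.3% and Gzma led the granzymes in 80.3% of WT cells. The log2 ratio of Gzmf turned to -2.21 in wells with 1500 to 3000 genes and to -1.79 in the upper rows, both of which leave out the PD-1-/- cell in L3. That of Gzmc was -0.81 with all wells kept and 0.76 in wells with 1500 to 3000 genes. Other causes were not tested. Values of single cells carry no replicate error, and a member at 0 may have been missed at this depth.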
